A study of Homo sapiens with 12 samples.

Results

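Tipifarnib inhibits farnesyltransferase, and its effect on gene expression in MDA-MB-231 is described here from 4 of the 12 libraries of a study of 3 human cancer cell lines. MDA-MB-231 is a mesenchymal, oestrogen receptor negative breast cancer line. The members were all MDA-MB-231 libraries by their labels, 2 from cells given 20 µM tipifarnib for 48 h and 2 from cells given DMSO, and every gene of the count table was used. The other 8 libraries, from the ovarian line SKOV3 at 20 µM and the lung line A549 at 10 µM with their own DMSO libraries, serve only to set the spread and to compare lines. Each side of the MDA-MB-231 comparison holds 1 library with each lentiviral vector, pCDH-puro-cMyc, which expresses full-length human MYC, or the pCDH-CMV control. All 4 cultures therefore carry a vector and passed puromycin selection, and no untransduced cells are among them. The labels do not say whether the selected cells were pools or clones. Libraries of a side differ in vector and are not repeat cultures of the same cells. The p-values rest on how far the tipifarnib change differed between the 2 vectors in each of the 3 lines. That spread may hold vector effects on the response as well as culture and technical variation.

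The MDA-MB-231 libraries held 20481363 to 26962994 gene counts, and mitochondrial genes took 3.69% to 5.25% of them. Levels are CPM, gene counts divided by the library total with TMM scaling, the value with the control vector is given before the value with the MYC vector, and changes are fitted log2 fold changes of tipifarnib over DMSO ± the standard error of the fit. A gene rose or fell where the adjusted p of the edgeR quasi-likelihood test, over 17913 genes tested, was under 0.05. Of 9 MDA-MB-231 markers 8 were well detected, among them vimentin (VIM) with 1147 and 887 CPM in tipifarnib and 1412 and 1099 CPM in DMSO, while SPARC stayed under 1 CPM. Marker counts follow in the order control tipifarnib, MYC tipifarnib, control DMSO and MYC DMSO. Of 8 luminal breast markers, the oestrogen receptor ESR1 had 6, 5, 0 and 2 counts and E-cadherin (CDH1) 2, 1, 3 and 0. Other luminal markers were detected: KRT19 had 11307, 9478, 3497 and 2020 counts and GATA3 had 182, 146, 134 and 157. FOXA1, ERBB3 and EPCAM had at least 59 counts in every library, and PGR had 0. In the same order the haematopoietic marker PTPRC had 0, 1, 0 and 0 counts. The list of 5 blood cell markers summed to 0.0914 and 0.144 CPM in tipifarnib and 1.25 and 0.821 CPM in DMSO. The fibroblast marker list summed to 10.3 and 12.1 CPM in tipifarnib and 16.4 and 12.7 CPM in DMSO, and the endothelial list to 0.228 and 0.506 CPM in tipifarnib and 0.626 and 0.216 CPM in DMSO.

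Farnesyltransferase, a dimer of FNTA and FNTB, attaches a farnesyl lipid to a cysteine near the C terminus of proteins such as the RAS GTPases, RHEB, RHOB and the B-type lamins. The lipid comes from farnesyl diphosphate, an intermediate of the mevalonate pathway that also leads to cholesterol and to the geranylgeranyl group. Some farnesylated proteins, NRAS among them, can be geranylgeranylated instead when farnesyltransferase is blocked, while HRAS and RHEB depend on the farnesyl group.

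The response was broad. Of the 17913 genes tested 3844 changed, which is 21.5%: 1775 rose (9.91%) and 2069 fell (11.6%) in tipifarnib. Of the risen genes 882 changed more than 2-fold and 286 more than 4-fold, against 367 and 59 of the fallen genes. Both pairs of libraries moved the same way for 3843 of the 3844. The test on the average of the 2 pairs favours such genes, so this agreement is no separate support. Both tipifarnib libraries lay above both DMSO libraries in 27.8% of the genes tested and below both in 25.5%, and the sides did not overlap in 3677 of the 3844. In bulk RNA, fewer cells of a kind and less RNA per cell cannot be told apart, and the effect of tipifarnib on cell number was not measured here. With any 1 MDA-MB-231 library left out, the change rests on a single pair: 710 genes passed without the control tipifarnib library, 722 without the control DMSO library, 570 without the MYC tipifarnib library and 530 without the MYC DMSO library. With no term for the vector 737 genes passed, 344 higher and 393 lower.

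**Figure D1:**
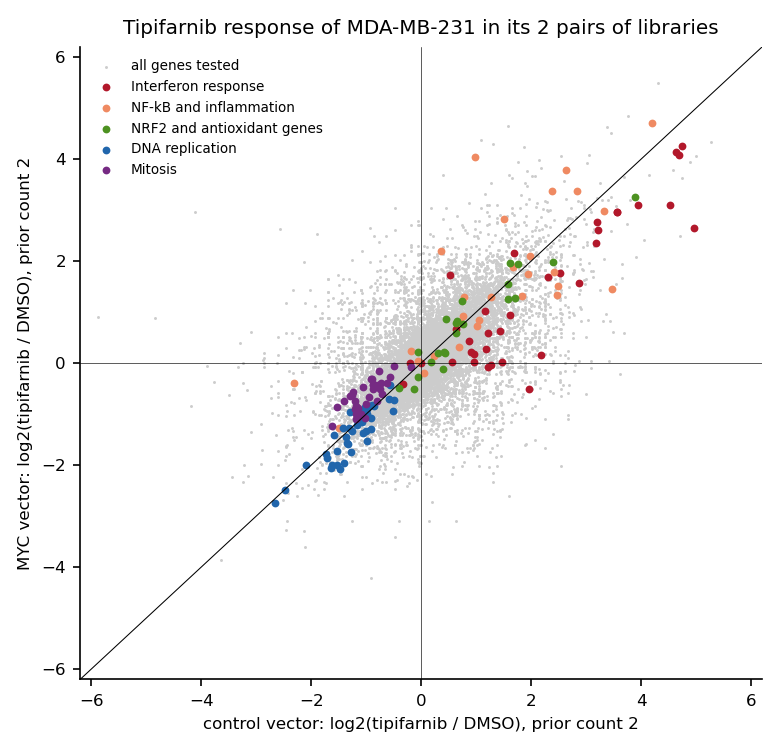
Log2 ratio of tipifarnib to DMSO in the control vector pair (horizontal axis) and in the MYC vector pair (vertical axis) of MDA-MB-231 libraries, 1 point per gene tested, with a prior count of 2 and the line of equal change. Coloured points are listed genes: interferon and NF-kB genes lie mostly to the right of and above 0, and the 38 DNA replication genes all lie below 0 in both pairs.

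The largest rises among genes with a mean log2 CPM of at least 1 included secreted proteins and interferon-induced genes. The calcium-binding protein S100P had 20.6 and 58.6 CPM in tipifarnib and 0.963 and 1.21 CPM in DMSO, a change of 5.12 ± 0.42 (edgeR adjusted p = 0.000165). The cytokine IL24 had 22.7 and 19.2 CPM in tipifarnib and 1.16 and 0.648 CPM in DMSO (4.56 ± 0.35, edgeR adjusted p = 0.000277), and DESeq2 gave an adjusted p of 0.548 for it. GDF15, a secreted stress cytokine, had 75.3 and 139 CPM in tipifarnib and 3.08 and 10.0 CPM in DMSO (4.14 ± 0.34, edgeR adjusted p = 0.000165). In each of these genes both tipifarnib libraries lay above both DMSO libraries. The hexokinase family member HKDC1 changed by 4.44 ± 0.26, the hair keratin KRT34 by 4.12 ± 0.45, the chromatin-associated stress protein NUPR1 by 3.99 ± 0.66, the nuclear envelope protein SUN3 by 3.74 ± 0.31 and the tetraspanin-like TM4SF19 by 3.44 ± 0.48. The other 4 of the 12 largest rises, IFIT2, IFIT1, OASL and HMOX1, are described with their groups.

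The 12 largest falls by the same rule included genes of several kinds. The NADPH oxidase NOX5 had 0.914 and 0.470 CPM in tipifarnib and 12.4 and 8.0 CPM in DMSO, a change of -3.90 ± 0.40 (edgeR adjusted p = 0.000539). The phosphodiesterase PDE1C had 2.42 and 2.75 CPM in tipifarnib and 23.4 and 11.3 CPM in DMSO (-2.64 ± 0.34, edgeR adjusted p = 0.000918). COL8A1, a collagen chain, had 19.2 and 6.94 CPM in tipifarnib and 94.1 and 35.6 CPM in DMSO (-2.32 ± 0.15, edgeR adjusted p = 0.000142). For all 3 genes the groups did not overlap. The scavenger receptor protein DMBT1 changed by -2.88 ± 0.42, the protease FAM111B by -2.77 ± 0.41, the metalloproteinase inhibitor TIMP3 by -2.56 ± 0.35, the scaffold protein MPP4 by -2.33 ± 0.30, the kinase NRK by -2.32 ± 0.49 and the microRNA host transcript MIR137HG by -2.72 ± 0.36. DMBT1 had 3.02 and 0.181 CPM in tipifarnib and 17.0 and 2.51 CPM in DMSO, so its sides overlap although it fell within each vector. Each of these 6 genes lost the call in at least 1 of the 4 fits with a library left out, and NRK, like NUPR1 and TM4SF19 among the rises, in all 4. RRM2, E2F2 and CCNE2 complete the 12.

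**Figure D2:**
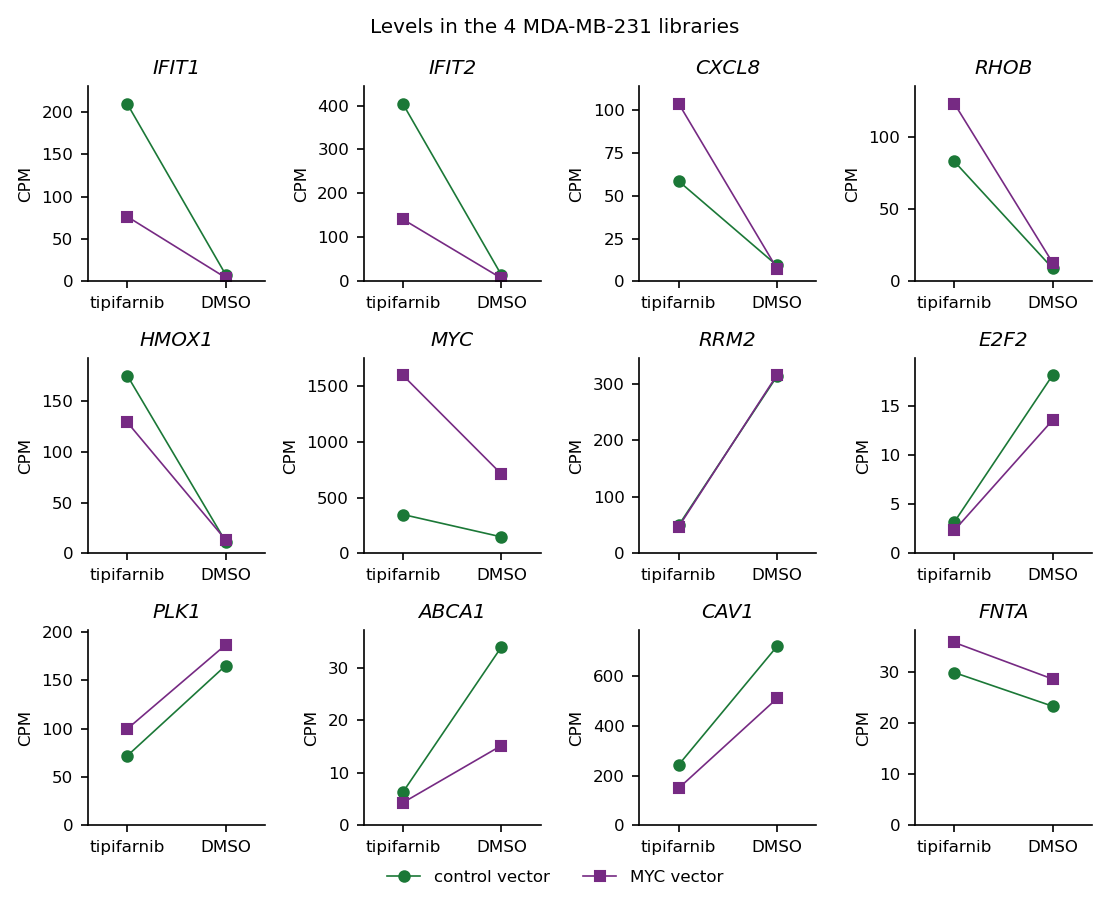
CPM of 12 genes in the 4 MDA-MB-231 libraries, tipifarnib on the left and DMSO on the right of each panel, with circles for the control vector and squares for the MYC vector; each axis starts at 0 and lines join the pair of a vector. IFIT1, IFIT2, CXCL8, RHOB and HMOX1 are high in both tipifarnib libraries, RRM2, E2F2, PLK1, ABCA1 and CAV1 are low there, MYC is higher with the MYC vector in both treatments, and FNTA did not pass the test.

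Interferon-stimulated genes rose as a group in MDA-MB-231. These genes, which block viral replication and sense viral RNA, are induced when interferon or RNA sensors activate factors such as STAT2, IRF9 and other IRFs, which bind an element in their promoters. Of 35 listed genes tested 22 rose and none fell, against 9.91% and 11.6% of all genes, and the median change was 1.23 against 0 over all genes tested. With 1 library left out 7 to 12 of them rose. IFIT2, an antiviral protein that binds RNA, had 403 and 141 CPM in tipifarnib and 15.0 and 7.30 CPM in DMSO, a change of 4.52 ± 0.22 (edgeR adjusted p = 3.05e-05). Its neighbour in function IFIT1 had 209 and 76.3 CPM in tipifarnib and 8.04 and 4.41 CPM in DMSO (4.42 ± 0.41, edgeR adjusted p = 0.000234). IFIT3 had 444 and 148 CPM in tipifarnib and 37.8 and 18.8 CPM in DMSO (3.27 ± 0.21, edgeR adjusted p = 5.73e-05). In these 3 genes both tipifarnib libraries stood far above both DMSO libraries, and the control vector library was the higher of each side. The RNA sensor MDA5 (IFIH1) had 64.5 and 26.7 CPM in tipifarnib and 5.39 and 3.33 CPM in DMSO (3.30 ± 0.21, edgeR adjusted p = 6.56e-05). The oligoadenylate synthetase family member OASL had 85.3 and 27.4 CPM in tipifarnib and 3.37 and 1.47 CPM in DMSO (4.46 ± 0.44, edgeR adjusted p = 0.000291). These 5 genes passed in all 4 fits with a library left out.

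Among the interferon factors and sensors 6 of 10 rose: STAT2 by 0.65 ± 0.14, IRF7 by 0.91 ± 0.26, the RNA sensor RIG-I (RIGI) by 0.73 ± 0.23, DHX58, a relative of RIG-I, by 3.13 ± 0.35, IFIH1, and the type III interferon gene IFNL1. IRF9 (1.34 ± 0.74) did not pass. IFNL1 had 27 and 18 counts in tipifarnib and 0 in both DMSO libraries, at least 13.8-fold higher against a floor of 3 counts over the DMSO side. The chemokine CXCL11, of the effector list, had 41 and 18 counts in tipifarnib and 0 in both DMSO libraries, at least 18.5-fold higher by the same floor, and with both genes at their bound the list median stayed 1.23. IRF7 had 20.1 and 8.31 CPM in tipifarnib and 8.67 and 5.53 CPM in DMSO, and RIGI had 102 and 35.3 CPM in tipifarnib and 45.1 and 29.3 CPM in DMSO. The sides overlap in both genes. IRF7, RIGI, IFNL1 and CXCL11 each lost the call in all 4 fits with a library left out. The type I interferon IFNB1 had 0 counts in all 4 libraries, which allows up to 3 counts in a library. The chemokine CXCL10 had 21 and 8 counts in tipifarnib and 1 and 1 in DMSO and was too low to test. ISG15, a ubiquitin-like modifier, had 143 and 51.8 CPM in tipifarnib and 19.4 and 17.4 CPM in DMSO (2.23 ± 0.38, edgeR adjusted p = 0.00350), and passed in 2 of the 4 fits with a library left out. Of 15 antigen presentation genes that interferon also induces 5 rose and 0 fell, against 9.91% and 11.6% of all genes. The risers were TAP1 (0.82 ± 0.15), HLA-E (0.69 ± 0.12), HLA-C (0.65 ± 0.17), ERAP2 (0.55 ± 0.14) and HLA-B (0.43 ± 0.12). With 1 library left out 0 to 1 of the 15 passed, and reads of HLA class I genes can be split between near-identical copies.

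The IFIT1 promoter is shown because it holds 2 copies of the interferon-stimulated response element within a short stretch. The window runs 250 bases upstream to 50 bases downstream of the start in RefSeq on GRCh38.p14, at chr10:89392373-89392672 on the plus strand, and capitals mark the element, which is GAAA, any 2 bases and GAAA again, as read from the other strand.
IFIT1: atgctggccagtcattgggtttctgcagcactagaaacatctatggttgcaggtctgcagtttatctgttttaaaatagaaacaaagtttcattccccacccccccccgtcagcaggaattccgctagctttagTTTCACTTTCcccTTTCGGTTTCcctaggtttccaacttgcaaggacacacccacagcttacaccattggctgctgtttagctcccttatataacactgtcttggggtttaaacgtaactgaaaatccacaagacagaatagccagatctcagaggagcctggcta
The copies begin 116 and 103 bases upstream of the start. On either strand the element occurred in 19 of the 29 listed interferon genes with a promoter in the table, 11 of the 16 that rose and 8 of the 13 others, and in 3.57% of the 35116 promoters. A match is a description of the letters and does not show that a factor was bound.

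NF-kB target genes rose too, where 9.91% of all genes rose and 11.6% fell. NF-kB dimers of the REL family, held in the cytoplasm by inhibitors such as NFKBIA, drive cytokine and chemokine genes and their own inhibitors. Of 29 listed genes tested 20 rose and 1 fell, with a median change of 1.79, and 9 to 11 rose with 1 library left out. The neutrophil chemokine CXCL8 had 58.5 and 104 CPM in tipifarnib and 9.29 and 7.48 CPM in DMSO, a change of 3.22 ± 0.26 (edgeR adjusted p = 0.000165). CXCL2 had 11.5 and 13.3 CPM in tipifarnib and 1.54 and 1.21 CPM in DMSO (3.17 ± 0.32, edgeR adjusted p = 0.000350), and CXCL3 changed by 3.23 ± 0.32. Both tipifarnib libraries exceeded both DMSO libraries for each of these chemokines. PTGS2, the inducible cyclooxygenase, had 19.7 and 19.6 CPM in tipifarnib and 3.71 and 1.81 CPM in DMSO (2.88 ± 0.29, edgeR adjusted p = 0.000356). Of the subunits and inhibitors 8 of 13 rose, among them the non-canonical subunits RELB (2.05 ± 0.20) and NFKB2 (1.28 ± 0.11), the apoptosis inhibitor BIRC3 (1.79 ± 0.16) and the feedback inhibitor TNFAIP3 (1.59 ± 0.26). The other subunits, REL (0.03), RELA and NFKB1, did not pass. The single fall was IL11, a cytokine of the IL6 family, with 33.0 and 23.2 CPM in tipifarnib and 93.7 and 55.8 CPM in DMSO (-1.39 ± 0.23, edgeR adjusted p = 0.00306). TNF itself had 0 counts in all 4 libraries. The CXCL2 promoter, at chr4:74099146-74099445 on the minus strand of GRCh38.p14, is shown because it carries the NF-kB element, in capitals, beginning 78 bases upstream of the start.
CXCL2: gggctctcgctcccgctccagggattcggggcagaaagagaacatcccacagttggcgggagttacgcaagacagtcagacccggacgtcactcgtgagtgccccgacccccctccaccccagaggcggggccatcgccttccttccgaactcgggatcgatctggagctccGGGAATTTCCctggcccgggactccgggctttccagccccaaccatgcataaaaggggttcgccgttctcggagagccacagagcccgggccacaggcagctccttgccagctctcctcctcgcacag
The capital letters, on either strand, occurred in 8 of 26 listed NF-kB genes with a promoter and in 0.145% of all promoters. They were in 5 of the 19 listed genes that changed and in 3 of the 7 others.

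Immediate early genes, which encode transcription factors induced within minutes by growth factors and stress, stood higher after 48 h of tipifarnib. The shares of all genes that rose and fell were 9.91% and 11.6%. Of 23 AP-1 and early response genes 16 rose and none fell, with a median of 1.20, and 4 to 7 rose with 1 library left out. EGR1, a zinc finger factor, had 79.2 and 266 CPM in tipifarnib and 12.3 and 42.4 CPM in DMSO, a change of 2.67 ± 0.57 (edgeR adjusted p = 0.00956). The groups did not overlap, and within each treatment EGR1 was higher with the MYC vector. KLF2 had 95.0 and 95.0 CPM in tipifarnib and 15.1 and 13.6 CPM in DMSO (2.73 ± 0.27, edgeR adjusted p = 0.000322). The AP-1 subunits JUNB, FOS and FOSB changed by 1.93 ± 0.18, 1.84 ± 0.27 and 1.94 ± 0.38, and ZFP36, which destabilises cytokine mRNAs, by 1.82 ± 0.16. KLF2, JUNB, KLF6 and ZFP36 passed in all 4 fits with a library left out. FOS passed in 2 of these fits, and EGR1 and FOSB in none.

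Of 24 feedback genes of the RAS and ERK pathway 5 rose, 4 fell and 15 did not pass, with a median of 0.22, against 9.91% and 11.6% of all genes. The ERK and JNK phosphatase DUSP1 had 148 and 94.2 CPM in tipifarnib and 40.8 and 27.8 CPM in DMSO, a change of 1.81 ± 0.20 (edgeR adjusted p = 0.000550). The nuclear ERK phosphatase DUSP5 had 249 and 303 CPM in tipifarnib and 85.8 and 118 CPM in DMSO (1.45 ± 0.15, edgeR adjusted p = 0.000436). The RAS pathway inhibitor SPRY1 had 18.8 and 16.3 CPM in tipifarnib and 59.9 and 58.7 CPM in DMSO (-1.76 ± 0.22, edgeR adjusted p = 0.000836). DUSP1 and DUSP5 were higher and SPRY1 lower in both tipifarnib libraries. The cytoplasmic ERK phosphatase DUSP6 had 78.9 and 72.9 CPM in tipifarnib and 134 and 141 CPM in DMSO and did not pass (-0.86 ± 0.34, edgeR adjusted p = 0.104). Cyclin D1 (CCND1), a target of the pathway, changed by -0.87 ± 0.25, and SPRED1 and DUSP7 by -0.61 ± 0.14 and -0.67 ± 0.13. The other risers were DUSP8, DUSP10 and IER3. With 1 library left out 2 of the listed genes rose and 0 to 1 fell.

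The target enzyme's own transcripts did not pass the test. FNTA (ENSG00000168522.8), the shared alpha subunit, had 29.8 and 35.7 CPM in tipifarnib and 23.3 and 28.6 CPM in DMSO (0.34 ± 0.13, edgeR adjusted p = 0.0885). FNTB (ENSG00000257365.3), the farnesyltransferase beta subunit, had 5.85 and 6.72 CPM in tipifarnib and 7.42 and 7.39 CPM in DMSO (-0.24 ± 0.20, edgeR adjusted p = 0.433). FNTA was slightly higher and FNTB slightly lower in both tipifarnib libraries, and FNTB shares a read-through transcript with CHURC1, so its reads are uncertain. Of the 12 prenylation and CAAX processing enzymes 3 fell and 1 rose, against 11.6% and 9.91% of all genes. The methyltransferase ICMT, which caps the processed cysteine, had 118 and 82.1 CPM in tipifarnib and 219 and 171 CPM in DMSO, a change of -0.98 ± 0.13 (edgeR adjusted p = 0.000977). CHML, an escort protein for RAB prenylation, changed by -0.87 ± 0.12 and the CAAX protease ZMPSTE24 by -0.57 ± 0.11, while GGPS1, which makes geranylgeranyl diphosphate, changed by 0.91 ± 0.13. With 1 library left out 1 of the 3 falls passed.

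Among 26 genes of farnesylated proteins 2 rose and 5 fell, against 9.91% and 11.6% of all genes, and the median change was 0.00. RHOB, a small GTPase that carries either lipid, had 82.9 and 123 CPM in tipifarnib and 9.0 and 12.9 CPM in DMSO, a change of 3.23 ± 0.17 (edgeR adjusted p = 3.72e-05). It was the only one of 11 small GTPases of the RAS superfamily in the list to pass. HRAS (-0.29 ± 0.16), NRAS (-0.27 ± 0.12) and RHEB (0.17 ± 0.12) did not. The B-type lamins fell: LMNB1 had 97.8 and 118 CPM in tipifarnib and 223 and 232 CPM in DMSO (-1.08 ± 0.12, edgeR adjusted p = 0.000478), and LMNB2 changed by -1.03 ± 0.13. A-type lamin LMNA did not pass (0.14 ± 0.14, edgeR adjusted p = 0.519). The farnesylated kinetochore proteins CENPF, CENPE and SPDL1 changed by -0.94 ± 0.16, -0.76 ± 0.15 and -0.82 ± 0.13, and the phosphatase PTP4A3 by 0.60 ± 0.18. The count of 5 falls was 2 to 4 with 1 library left out.

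Every listed gene of DNA replication fell. Replication genes are switched on by E2F factors when cells pass from G1 into S phase, and their mRNA is most abundant in cycling cells. All 38 listed genes fell, against 11.6% of all genes, with a median change of -1.28, and 26 to 31 fell with 1 library left out. RRM2, the regulated subunit of ribonucleotide reductase, had 49.7 and 47.1 CPM in tipifarnib and 313 and 315 CPM in DMSO, a change of -2.70 ± 0.15 (edgeR adjusted p = 3.92e-05). MCM10, an origin firing factor, had 40.5 and 32.1 CPM in tipifarnib and 126 and 135 CPM in DMSO (-1.86 ± 0.15, edgeR adjusted p = 0.000165). The libraries of a side lay close together in these genes and far from the other side. The 16 helicase and origin genes had a median of -1.44, and the other 22, of polymerases, clamp, nucleotide supply, chromatin assembly and E2F factors, a median of -1.15. CHAF1B, of the chromatin assembly factor, changed by -1.63 ± 0.13, and the helicase component CDC45 by -1.50 ± 0.12.

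Factors and cyclins that control S phase entry fell with them. E2F2, an activating E2F, had 3.20 and 2.35 CPM in tipifarnib and 18.1 and 13.6 CPM in DMSO (-2.52 ± 0.21, edgeR adjusted p = 0.000165), E2F8, a repressive E2F, changed by -2.06 ± 0.18 and E2F1 by -1.25 ± 0.17. Cyclin E2 (CCNE2) had 4.16 and 2.71 CPM in tipifarnib and 20.2 and 17.0 CPM in DMSO (-2.46 ± 0.27, edgeR adjusted p = 0.000479). Of 16 cyclins, kinases and RB family genes 11 fell and 1 rose, against 11.6% and 9.91% of all genes. The riser was RBL2 (0.84 ± 0.14), which encodes the RB relative p130. Over the whole list of 21 tested genes 12 fell, or 6 to 7 with 1 library left out. RBL1, which encodes the RB relative p107, changed by -1.28 ± 0.11, the G1 kinase CDK6 by -1.04 ± 0.13 and the phosphatase CDC25A by -1.53 ± 0.15. The CDK inhibitor CDKN1A (p21) had 96.2 and 59.5 CPM in tipifarnib and 33.5 and 21.1 CPM in DMSO (1.51 ± 0.25, edgeR adjusted p = 0.00300), CDKN1C (p57) changed by 1.38 ± 0.30, and CDKN2C (p18) by -1.45 ± 0.14. CDKN1A and CDKN1C lost the call with a library left out, and CDKN2C did not. CDKN2A and CDKN2B had at most 4 counts in any of the 4 libraries. The E2F2 promoter, at chr1:23531184-23531483 on the minus strand of GRCh38.p14, is shown because the gene is itself an E2F target, with the E2F letters TTTGGCGC in capitals beginning 42 bases upstream of the start.
E2F2: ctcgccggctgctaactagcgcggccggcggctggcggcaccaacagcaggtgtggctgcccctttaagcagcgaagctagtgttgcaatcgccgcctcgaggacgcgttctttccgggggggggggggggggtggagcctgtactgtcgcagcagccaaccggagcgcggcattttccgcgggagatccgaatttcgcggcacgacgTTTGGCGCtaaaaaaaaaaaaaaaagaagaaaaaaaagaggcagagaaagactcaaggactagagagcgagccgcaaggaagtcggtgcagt
The letters TTTGGCGC or TTTCCCGC, on either strand, occurred in 17 of 33 listed replication genes with a promoter and in 2.27% of all promoters.

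Mitosis and repair genes fell as well. Of 34 mitosis genes 31 fell, against 11.6% of all genes, with a median of -0.79. With 1 library left out 5 to 21 fell: 5 without the control tipifarnib library, 6 without the control DMSO library, 21 without the MYC tipifarnib library and 19 without the MYC DMSO library. PLK1, a kinase of mitotic entry and spindle assembly, had 71.9 and 99.7 CPM in tipifarnib and 165 and 186 CPM in DMSO, a change of -1.05 ± 0.12 (edgeR adjusted p = 0.000563). The topoisomerase TOP2A had 298 and 327 CPM in tipifarnib and 923 and 774 CPM in DMSO (-1.44 ± 0.13, edgeR adjusted p = 0.000205), and the mitotic transcription factor FOXM1 changed by -1.14 ± 0.12. PLK1, TOP2A and FOXM1 passed in all 4 fits with a library left out. Of 18 homologous recombination and Fanconi genes 16 fell, with a median of -0.97, and 7 fell in each fit with a library left out. The PLK1 promoter, at chr16:23678639-23678938 on the plus strand of GRCh38.p14, is shown for the cell cycle homology region TTTGAA, in capitals, which begins 29 bases upstream of the start and is known from G2 and M phase genes.
PLK1: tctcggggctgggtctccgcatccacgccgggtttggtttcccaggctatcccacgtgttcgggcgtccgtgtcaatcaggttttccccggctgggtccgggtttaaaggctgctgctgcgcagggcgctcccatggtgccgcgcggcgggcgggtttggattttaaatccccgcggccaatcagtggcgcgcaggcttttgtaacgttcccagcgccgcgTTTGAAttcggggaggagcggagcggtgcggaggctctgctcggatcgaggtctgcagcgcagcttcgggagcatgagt
These 6 letters, on either strand, occurred in 22 of 29 listed mitosis genes with a promoter and in 15.2% of all promoters.

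MYC stood higher in tipifarnib in both vector pairs. MYC (ENSG00000136997.10) had 348 and 1594 CPM in tipifarnib and 148 and 711 CPM in DMSO, a change of 1.20 ± 0.26 (edgeR adjusted p = 0.0105). The groups overlap, since the level was higher with the MYC vector in either treatment, and the log2 ratio was 1.23 in the control pair and 1.16 in the MYC pair. Reads from the vector and from the endogenous gene cannot be separated, and MYC lost the call in all 4 fits with a library left out. The MYC antagonists MXD4, MXD1 and MXI1 changed by 1.30 ± 0.20, 1.04 ± 0.25 and 0.96 ± 0.21, while MAX, the dimer partner, did not pass (0.17 ± 0.14). Of the 11 genes of this list 4 rose, and 0 to 1 rose with a library left out. Over all genes 9.91% rose and 11.6% fell. Genes of ribosome assembly, which MYC is known to activate, fell: 23 of 33 fell and none rose, with a median of -0.51. That count was 1 without either MYC vector library and 6 without either control vector library. POLR1A, the large subunit of RNA polymerase I, had 142 and 150.1 CPM in tipifarnib and 236 and 266 CPM in DMSO (-0.78 ± 0.11, edgeR adjusted p = 0.00155), and the nucleolar protein NOP56 had 190.3 and 220.5 CPM in tipifarnib and 309 and 489 CPM in DMSO (-0.92 ± 0.14, edgeR adjusted p = 0.00186). Of 25 genes of nucleotide and polyamine synthesis 14 fell and 1 rose, with a median of -0.48, and 6 to 7 fell with 1 library left out. PFAS, of purine synthesis, changed by -1.05 ± 0.12, and AMD1 and SRM, of polyamine synthesis, by -0.94 ± 0.11 and -0.94 ± 0.13. The riser was SAT1, which breaks polyamines down (0.84 ± 0.23).

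Cholesterol synthesis genes rose in part, and fatty acid genes mostly did not pass. For all genes the shares that rose and fell were 9.91% and 11.6%. Low sterol in the endoplasmic reticulum releases the SREBP factors, which induce the enzymes of the mevalonate and cholesterol pathway and, through SREBP-1, those of fatty acid synthesis. Of 32 sterol genes 13 rose and 2 fell, with a median of 0.54, and 4 rose in each fit with a library left out. MSMO1, a sterol oxidase, had 199 and 239 CPM in tipifarnib and 55.1 and 72.0 CPM in DMSO, a change of 1.79 ± 0.17 (edgeR adjusted p = 0.000250). The lysosomal cholesterol exporter NPC1 had 348 and 374 CPM in tipifarnib and 123 and 119 CPM in DMSO (1.58 ± 0.11, edgeR adjusted p = 0.000127). Both genes were higher in both tipifarnib libraries and passed in all 4 fits with a library left out. HMGCS1 changed by 1.68 ± 0.35, INSIG1, a sterol sensor, by 1.34 ± 0.25, and squalene synthase (FDFT1), which draws on the same farnesyl diphosphate, by 0.91 ± 0.17. The farnesyl diphosphate synthase FDPS did not pass (0.65 ± 0.23, edgeR adjusted p = 0.0706). SREBF1, which encodes SREBP-1, changed by -0.94 ± 0.29.

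Of 9 fatty acid synthesis genes 1 rose and 0 fell, against 9.91% and 11.6% of all genes, and the median was -0.09. The riser was the acetate-activating ACSS2 (1.34 ± 0.21). Fatty acid synthase (FASN) had 454 and 804 CPM in tipifarnib and 569 and 966 CPM in DMSO, which did not pass (-0.30 ± 0.15, edgeR adjusted p = 0.190), nor did the desaturase SCD (-0.15 ± 0.38). Among 7 targets and genes of the liver X receptors, which answer to high oxysterol, 3 fell, or 1 to 2 with a library left out. ABCA1, the cholesterol exporter, had 6.35 and 4.34 CPM in tipifarnib and 33.9 and 15.2 CPM in DMSO (-2.12 ± 0.19, edgeR adjusted p = 0.000225). MYLIP, which degrades the LDL receptor, and LPCAT3, a phospholipid remodelling enzyme, changed by -1.53 ± 0.22 and -1.02 ± 0.19. ABCA1 passed in all 4 fits with a library left out, MYLIP and LPCAT3 did not.

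**Figure D3:**
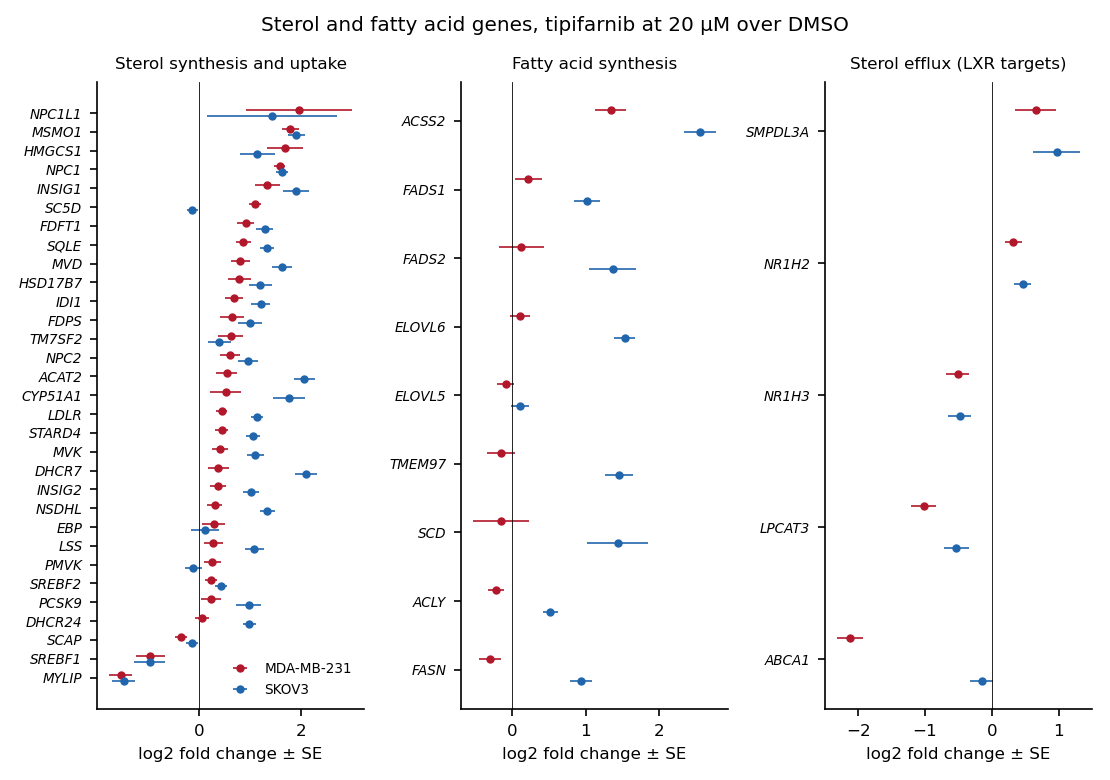
Fitted log2 fold change ± SE of tipifarnib over DMSO for sterol synthesis and uptake, fatty acid synthesis and sterol efflux genes, MDA-MB-231 above SKOV3 in each row, both lines at 20 µM. Most fatty acid genes lie near 0 in MDA-MB-231 and to the right in SKOV3, with list medians of -0.09 in MDA-MB-231 and 1.37 in SKOV3. ABCA1 lies at -2.12 in MDA-MB-231 and at -0.15 in SKOV3; MYLIP is drawn with the sterol genes, ABCG1 is left out as barely detected in MDA-MB-231, and 1 of the 32 sterol genes is not drawn.

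Lysosome and stress genes rose in part. Of 41 lysosome and autophagy genes 18 rose and none fell, against 9.91% and 11.6% of all genes, with a median of 0.29. The count was 4 to 6 with 1 library left out. Autophagy genes and regulators made up 10 of the 18, out of 16 tested. SQSTM1, an autophagy receptor, had 748 and 671 CPM in tipifarnib and 177 and 209.8 CPM in DMSO, a change of 1.88 ± 0.13 (edgeR adjusted p = 0.000127). GABARAPL1, an ATG8 family protein, had 42.5 and 40.9 CPM in tipifarnib and 11.8 and 11.5 CPM in DMSO (1.84 ± 0.23, edgeR adjusted p = 0.000886), and the receptor OPTN changed by 1.54 ± 0.16. Of 15 lysosomal hydrolase genes 5 rose, among them acid ceramidase (ASAH1) by 0.81 ± 0.11 and cathepsin D (CTSD) by 1.03 ± 0.16.

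In the integrated stress response phosphorylated eIF2 favours translation of ATF4, which induces stress factors and amino acid genes. Of 8 factors 7 rose. Among 18 genes of amino acid enzymes and transporters 4 rose and 1 fell, against 9.91% and 11.6% of all genes. PPP1R15A (GADD34), which restores translation, had 444 and 532 CPM in tipifarnib and 105 and 118 CPM in DMSO (2.13 ± 0.32, edgeR adjusted p = 0.00191). The factors CEBPB, DDIT3 (CHOP) and ATF4 changed by 1.74 ± 0.24, 2.33 ± 0.58 and 0.63 ± 0.15. ASNS, asparagine synthetase, changed by 1.36 ± 0.35. PHGDH, the first enzyme of serine synthesis, had 0.959 and 2.42 CPM in tipifarnib and 1.06 and 1.99 CPM in DMSO and did not pass (0.14 ± 0.63, edgeR adjusted p = 0.935). Chaperones of the endoplasmic reticulum fell: of 20 listed genes 10 fell and 3 rose, with a median of -0.41. Calreticulin (CALR) had 460.4 and 408 CPM in tipifarnib and 1034 and 979 CPM in DMSO (-1.22 ± 0.26, edgeR adjusted p = 0.00917), and the chaperone BiP (HSPA5) had 742 and 685 CPM in tipifarnib and 1083 and 1087 CPM in DMSO (-0.61 ± 0.16, edgeR adjusted p = 0.0252). The 3 risers were DNAJB9, ERN1 and HERPUD1. No fall or rise in this list passed with a library left out, and of all 32 stress response genes tested 13 rose, or 2 to 3 with a library left out.

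Antioxidant genes controlled by NRF2, the factor freed from KEAP1 by electrophiles, rose: 12 of 22 rose and 1 fell, with a median of 0.69, and 7 to 9 rose with 1 library left out. Among all genes 9.91% rose and 11.6% fell. HMOX1, haem oxygenase, had 175 and 129 CPM in tipifarnib and 11.7 and 13.4 CPM in DMSO. Its change was 3.58 ± 0.22 (edgeR adjusted p = 4.49e-05). The thioredoxin reductase TXNRD1 had 2076 and 2338 CPM in tipifarnib and 695 and 795 CPM in DMSO (1.57 ± 0.12, edgeR adjusted p = 0.000163). The ferritin heavy chain FTH1 had 976 and 766 CPM in tipifarnib and 186 and 193 CPM in DMSO (2.19 ± 0.27, edgeR adjusted p = 0.000794), and the light chain FTL changed by 1.42 ± 0.12; both have many processed copies in the genome, so their read counts are uncertain. NQO1 (0.31 ± 0.13, edgeR adjusted p = 0.126) did not pass. The iron sensor ACO1 changed by -0.84 ± 0.12, and the transferrin receptor TFRC, with 518 and 814 CPM in tipifarnib and 575 and 839 CPM in DMSO, did not pass (-0.10 ± 0.12).

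Of 16 genes of the BCL2 family, which sets the threshold for apoptosis, 3 rose, 0 fell and 13 did not pass, with a median of 0.20, against 9.91% of all genes that rose. The 3 risers, PMAIP1, BBC3 and BMF, encode BH3 proteins, which promote apoptosis. PMAIP1 (NOXA) changed by 0.98 ± 0.30. BBC3 (PUMA) had 22.3 and 25.6 CPM in tipifarnib and 5.68 and 6.74 CPM in DMSO (1.95 ± 0.24, edgeR adjusted p = 0.000886). BMF, another BH3 protein, had 7.54 and 6.97 CPM in tipifarnib and 1.01 and 1.17 CPM in DMSO (2.73 ± 0.34, edgeR adjusted p = 0.000824). BBC3 and BMF were higher in both tipifarnib libraries and passed in all 4 fits with a library left out, while PMAIP1 passed in none of them.

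Adhesion, matrix and metabolic genes changed in smaller numbers. Over all genes tested 11.6% fell and 9.91% rose. Of 17 mesenchymal structure and matrix genes 6 fell and 1 rose, while 2 of 6 mesenchymal transcription factors rose. Without 1 library 1 to 4 of these genes fell and 0 rose. Thrombospondin 1 (THBS1) had 120.5 and 64.2 CPM in tipifarnib and 344 and 226 CPM in DMSO (-1.66 ± 0.21, edgeR adjusted p = 0.000860), and the basement membrane collagens COL4A2 and COL4A1 changed by -1.29 ± 0.16 and -1.15 ± 0.20. Caveolin 1 (CAV1), a marker of the line, had 243 and 149 CPM in tipifarnib and 718 and 509 CPM in DMSO (-1.67 ± 0.21, edgeR adjusted p = 0.000824). Both tipifarnib libraries were below both DMSO libraries for THBS1 and CAV1. Keratin 19 (KRT19), an epithelial keratin, had 516 and 342 CPM in tipifarnib and 168 and 87.3 CPM in DMSO (1.79 ± 0.36, edgeR adjusted p = 0.00727), while KRT18 and KRT8 changed by -1.43 ± 0.32 and -0.86 ± 0.27. None of these 3 keratins passed with a library left out. Of 10 other keratin and skin differentiation genes tested 6 rose, or 2 with 1 library left out. Among these risers KRT14 had 16 and 4 counts in tipifarnib and 0 in both DMSO libraries. The 6 untested genes of that list had 0 counts in all 4 libraries. In glycolysis, 9 of the 22 listed genes fell and 2 rose, against the same 11.6% and 9.91%. Lactate dehydrogenase A (LDHA) had 885 and 952 CPM in tipifarnib and 1833 and 1931 CPM in DMSO (-1.03 ± 0.15, edgeR adjusted p = 0.00155), and the glucose transporter SLC2A3 changed by 1.70 ± 0.16. Of 28 nuclear genes of oxidative phosphorylation 8 fell and none rose, against 11.6% and 9.91% of all genes, with a median of -0.21. With 1 library left out 0 to 1 of the glycolysis genes fell and 0 to 1 of the oxidative phosphorylation genes.

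MDA-MB-231 and SKOV3 received the same dose, and their responses differed by the edgeR test of the difference for 1270 of 17913 genes (7.09%), 646 higher (3.61%) and 624 lower (3.48%) in MDA-MB-231. Against A549 at 10 µM the response differed for 299 genes (1.67%), 148 higher (0.826%) and 151 lower (0.843%), and there line and dose cannot be told apart. Both differences use the same MDA-MB-231 libraries. Interferon genes stood out from SKOV3: 16 of 35 had a higher response in MDA-MB-231 and none a lower one, and the median change was 1.23 in MDA-MB-231, -0.22 in SKOV3 and 0.49 in A549. IFIT1 had 4.67 and 0.894 CPM in SKOV3 tipifarnib and 11.1 and 8.05 CPM in SKOV3 DMSO, so that its change in MDA-MB-231 exceeded that in SKOV3 by 6.37 ± 0.58 (edgeR adjusted p = 0.00201) and that in A549 by 4.25 ± 0.66 (edgeR adjusted p = 0.0149). For IFIT2 the excess was 4.74 ± 0.32 over SKOV3 and 3.07 ± 0.33 over A549. Of the 35 genes 5 passed against A549.

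**Figure D4:**
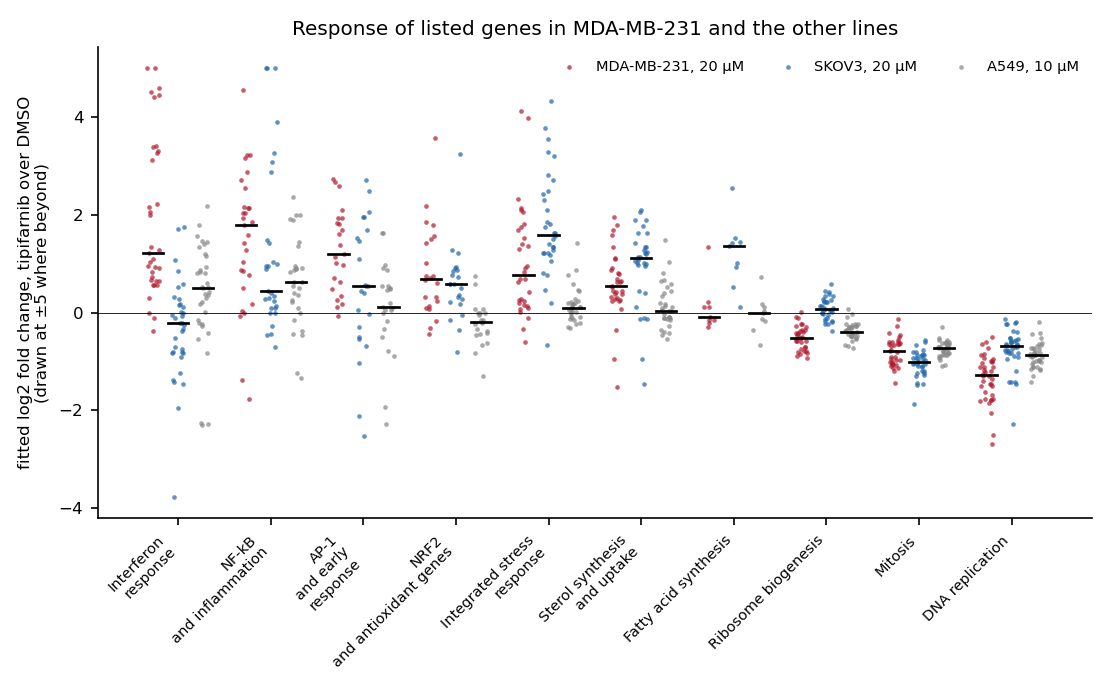
Fitted log2 fold change of tipifarnib over DMSO for each tested gene of 10 lists, with MDA-MB-231 left of SKOV3 and A549 in each group of 3 and a bar at the median; values beyond 5 are drawn at 5. Medians of interferon genes were 1.23 in MDA-MB-231, -0.22 in SKOV3 and 0.49 in A549, and those of DNA replication genes -1.28, -0.68 and -0.88 in the same order.

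Replication genes fell further in MDA-MB-231 than in SKOV3 for 12 of 38 and than in A549 for 2 of 38. No listed replication gene fell less by the test. Over all genes 3.61% had a higher and 3.48% a lower response than in SKOV3, and 0.826% and 0.843% than in A549. RRM2 differed by -1.27 ± 0.20 from SKOV3 and by -1.58 ± 0.20 from A549 (edgeR adjusted p = 0.0109 and 0.00739). Ribosome biogenesis genes differed from SKOV3 in 16 of 33, all lower in MDA-MB-231, with medians of -0.51 in MDA-MB-231 and 0.07 in SKOV3; none of the 33 passed against A549, whose median was -0.41. Fatty acid genes were below SKOV3 in 5 of 9, with medians of -0.09 in MDA-MB-231 and 1.37 in SKOV3, and integrated stress response genes in 6 of 32, all of them amino acid enzymes or transporters. Of the RAS and ERK feedback genes 9 of 24 were below SKOV3 and 2 above: DUSP6, for which the MDA-MB-231 change was -0.86 ± 0.34 and the SKOV3 change 1.19 ± 0.41, differed by -2.05 ± 0.54 (edgeR adjusted p = 0.0497), and CCND1 by -1.99 ± 0.36. NRF2 genes were above A549 in 11 of 22, with HMOX1 by 3.60 ± 0.28 (edgeR adjusted p = 0.00106). The RHOB response was higher than in both lines, by 2.34 ± 0.22 against SKOV3 and by 1.83 ± 0.22 against A549.

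Against both lines at once 87 genes (0.486%) had a higher and 66 (0.368%) a lower response in MDA-MB-231. By the smaller of their differences the highest were IFIT1, EGR1, ARC, HKDC1, TEX19 and IFIT2. ARC, a neuronal immediate early gene, had 8.27 and 21.4 CPM in MDA-MB-231 tipifarnib and 0.674 and 2.16 CPM in MDA-MB-231 DMSO, and at most 1.10 CPM in any library of the other lines. The fitted change of HKDC1 was 4.44 ± 0.26 in MDA-MB-231, 1.21 ± 0.16 in SKOV3 and 0.55 ± 0.16 in A549. That of TEX19 was 2.30 ± 0.30 in MDA-MB-231, -0.89 ± 0.24 in SKOV3 and -1.66 ± 0.41 in A549. The lowest were DMBT1, PDE1C, COL13A1, SEMA7A, ABCA1 and IL11. DMBT1 and COL13A1 stood at or below 1.10 CPM in all SKOV3 and A549 libraries, so their differences rest on few reads there. For ABCA1 the fitted change was -2.12 ± 0.19 in MDA-MB-231, -0.15 ± 0.17 in SKOV3 and 1.18 ± 0.19 in A549, and for the semaphorin SEMA7A it was -0.84 ± 0.24, 1.22 ± 0.26 and 1.99 ± 0.34 in that order. A gene with 0 counts in the other lines, such as IL24, cannot pass this test. With 1 MDA-MB-231 library left out the counts against SKOV3 and A549 were 12 to 32 and 5 to 7. Of the 12 genes named here, HKDC1 differed from both lines in all 4 of those fits, ABCA1 in 2, and the other 10 in none.

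The MYC and control vector pairs have 1 library per vector and treatment, so their difference has no test. Across 9664 genes with at least 10 CPM in 1 library, the log2 ratio of the MYC pair minus that of the control pair had a median of 0.01 and outer deciles that began at -0.36 and 0.36; 42 genes exceeded 1 and 33 lay under -1. Interferon genes responded in both pairs, with an IFIT2 log2 ratio of 4.26 in the MYC pair and 4.74 in the control pair, and an ISG15 ratio of 1.57 in the MYC pair and 2.88 in the control pair. The median log2 ratio over the interferon list was 0.94 in the MYC pair and 1.61 in the control pair. For DNA replication it was -1.34 in the MYC pair and -1.27 in the control pair, and for NF-kB genes 1.33 in the MYC pair and 1.27 in the control pair. The largest positive differences were in AFP, ALB, SHANK1, EPB41L3, CYFIP2 and AFAP1-AS1, at most 2.22 apart from AFP. AFP, the fetal serum protein, had 0.137 and 0.398 CPM in tipifarnib and 12.9 and 0.173 CPM in DMSO, so its difference of 6.78 rests on the control DMSO library. The largest negative differences were in CCN3, CHAC1, MIR22HG, TCTA, DKK1 and ISG15, between -1.71 and -1.31. DKK1, a WNT antagonist, had 47.2 CPM in tipifarnib and 144 CPM in DMSO with the MYC vector, and 153 CPM in tipifarnib and 182 CPM in DMSO with the control vector. CHAC1, a glutathione-degrading stress gene, had 27.5 CPM in tipifarnib and 17.4 CPM in DMSO with the MYC vector, and 47.2 CPM in tipifarnib and 10.4 CPM in DMSO with the control vector. MYC-vector and control-vector values of these genes have no replicate check.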

How the data were processed

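RNA was extracted from cells 48 h after 20 µM tipifarnib (10 µM for A549) or DMSO, and a SMARTER mRNA-Seq kit was used for the libraries, per the labels' protocols. The authors deposited 1 table of raw read counts per gene, with 57820 gene rows and 5 summary rows; TopHat2, HTSeq, DESeq2 and hg19 are named in the submitters' processing notes without versions or roles. Whether counting used strand is not given in the sources used here, so overlapping genes cannot be separated. The summary rows, 17.5% to 17.8% of each MDA-MB-231 column, were left out, and a table of gene names gave a symbol for 51996 IDs.

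Counts of all 12 libraries were fitted in edgeR 4.0.16 (R 4.3.3) with TMM scaling, filterByExpr at a minimum count of 10, and terms for line, MYC vector within line and tipifarnib within line, which leaves 3 residual degrees of freedom shared by the lines. The vector term pairs the 2 libraries of a vector, as the labels give it; 9 coefficients were fitted. The quasi-likelihood test gave p-values, adjusted by Benjamini-Hochberg over 17913 genes, and SE is the fold change over the root of F. Differences between lines were contrasts of the same fit. Log2 ratios of single pairs used a prior count of 2. The text names the 12 largest rises and falls with a mean log2 CPM of at least 1, the 6 largest differences from both lines, the 6 largest vector differences each way, and, per list, up to 5 members with the smallest p and its defining members; other members named were chosen after their values were seen. A few listed genes have no values in the text. Members, gene lists and tests were chosen with earlier results of these data known. Alternatives were DESeq2 1.42.0, limma-voom (limma 3.58.1), DESeq2 size factors, no low count filter, no vector term, each library left out, and other lines left out. In simulated counts a gene's spread followed its level alone, and no response differed between vectors. Only 200 genes above a minimum level were changed, while 21.5% of genes were called in the real counts. There the MDA-MB-231 test recovered 83% at 2-fold and 99% at 4-fold, with 7.14% of its calls false. Against SKOV3 the shares recovered were 57% and 94%, and against A549 50% and 93%. These shares may not hold for the real counts. Promoters are RefSeq sequences of GRCh38.p14, searched on both strands over 300 bases. Python 3.11.15 and matplotlib 3.10.9 made the figures.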

Additional observations from a re-analysis of the deposited data

Results flagged for a closer look

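The responses below differed between lines by the edgeR test of the difference itself. Against SKOV3 1270 genes differed, against A549 299, and against both lines 87 genes had a higher and 66 a lower response in MDA-MB-231. For A549 line and dose (10 µM against 20 µM) cannot be told apart. Over all genes 3.61% had a higher and 3.48% a lower response than in SKOV3, and 0.826% a higher response than in A549. Among the lists, 16 of 35 interferon genes had a higher response than in SKOV3, while 12 of 38 DNA replication, 16 of 33 ribosome biogenesis, 9 of 24 RAS and ERK feedback, 6 of 32 integrated stress response and 5 of 9 fatty acid synthesis genes had a lower one. In the RAS and ERK list 2 genes also had a higher response. Against A549, 11 of 22 NRF2 genes had a higher response. With 1 MDA-MB-231 library left out 12 to 32 genes differed from SKOV3 and 5 to 7 from A549, and the edgeR fit with no replicate block gave 0 (2023 at an unadjusted p under 0.05) and 6.

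The 6 genes with the highest response against both lines, by the smaller of their differences in log2 fold change, were IFIT1 (4.25), EGR1 (3.70), ARC (3.48), HKDC1 (3.23), TEX19 (3.19) and IFIT2 (3.07). The 6 lowest were DMBT1 (-4.72), PDE1C (-2.50), COL13A1 (-2.27), SEMA7A (-2.07), ABCA1 (-1.97) and IL11 (-1.94). With a library left out, HKDC1 differed from both lines in 4 of 4 fits, ABCA1 in 2, and the other 10 in none; IFIT1 and IFIT2 differed from SKOV3 alone in 3 and 4 of them. In the MDA-MB-231 test EGR1, SEMA7A and IL11 passed in 0 of the 4 fits, COL13A1 in 1, DMBT1 and TEX19 in 2, and the other 6 in all.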

How the results depend on the processing

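With DESeq2 size factors, DESeq2, limma-voom or no low count filter the number of genes changed by tipifarnib in MDA-MB-231 was 3816, 3882, 4012 and 4449, against 3844. The MDA-MB-231 libraries alone, with 1 residual degree of freedom, gave 5714, of them 2867 higher. The fit with no replicate block for vector gave 737 genes, 344 higher and 393 lower. Leaving out 1 library gave 530 to 722, with 246 to 353 higher and 279 to 372 lower; the change then rests on 1 pair of libraries, and its spread is taken from the other lines.

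The difference from SKOV3, 1270 genes, became 2355 with no low count filter (1151 higher, 1204 lower), 0 with no replicate block (0 higher, 0 lower), and 12 to 32 with a library left out (8 to 23 higher, 4 to 9 lower). DESeq2 gave 1020 lower, against 624. The unblocked edgeR fit, which gave 0, had 2023 genes at an unadjusted p under 0.05. The difference from A549, 299 genes, became 621 in DESeq2 (262 higher, 359 lower), 186 in limma-voom (95 higher, 91 lower), 1097 with no low count filter (540 higher, 557 lower), 6 with no replicate block (5 higher, 1 lower) and 5 to 7 with a library left out (4 to 6 higher, 1 lower in each). The cause of these shifts was not tested, except that the fits with a library left out hold fewer libraries.

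Of 168 genes named in the text that passed in MDA-MB-231, none reversed under any of these alternatives. DESeq2 lost the call of 10 (ASNS, CALR, CCND1, EREG, IL24, KRT8, MMP1, NRK, PTP4A3 and SREBF1) and gave no adjusted p for CXCL11, IFNL1, IL6 and SERPINB2. Limma-voom lost the call of 5, the fit without SKOV3 of 4, no low count filter of 1, no replicate block of 98 and a library left out of 75 to 89. The genes with a vector difference over 1 on the log2 scale, 75, were 71 to 79 with other prior counts or size factors. Each vector and treatment has 1 library, and depth was not varied; 1750 of the genes tested had under 10 counts over the 4 MDA-MB-231 libraries, and 2 of them passed.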

Other observations

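Ligands of the EGF receptor, which signal to neighbouring cells or back to their own, were among the genes not described above. Amphiregulin (AREG) had 3.75 and 3.83 CPM in tipifarnib and 1.64 and 1.30 CPM in DMSO (1.38 ± 0.26, edgeR adjusted p = 0.00568), and epiregulin (EREG) had 85.8 and 111 CPM in tipifarnib and 39.0 and 31.2 CPM in DMSO (1.48 ± 0.37, edgeR adjusted p = 0.0198). The receptor inhibitor LRIG1 changed by -0.88 ± 0.18, so that 2 of 13 genes of this family rose and 1 fell, close to the 9.91% and 11.6% of all genes, and 0 passed with a library left out. DESeq2 did not call EREG. Of 20 genes of TGF-beta, BMP and ID signalling 2 rose and 3 fell, again close to the shares of all genes: INHBA, a chain of activin, and ID2 changed by 1.83 ± 0.52 and 1.09 ± 0.29, and ID3, TGFB2 and TGFBR2 by -0.70 ± 0.15, -0.85 ± 0.12 and -0.77 ± 0.11. With a library left out 0 of them rose and 0 to 3 fell. Of 10 ABC exporters 2 rose, 2 fell and 6 did not pass, against the same 9.91% and 11.6%. ABCC2 had 3.65 and 4.84 CPM in tipifarnib and 1.06 and 1.95 CPM in DMSO (1.50 ± 0.19, edgeR adjusted p = 0.000886), ABCC3 had 64.5 and 38.0 CPM in tipifarnib and 19.0 and 9.77 CPM in DMSO (1.86 ± 0.17, edgeR adjusted p = 0.000205), and ABCC1 changed by -0.37 ± 0.11; the other fall was ABCA1. ABCC2 and ABCC3 passed in all 4 fits with a library left out, and ABCC1 in none.

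Of 16 matrix protease genes 3 rose and 1 fell, against 9.91% and 11.6% of all genes: the collagenase MMP1 had 8.82 and 33.0 CPM in tipifarnib and 4.33 and 8.95 CPM in DMSO (1.51 ± 0.44, edgeR adjusted p = 0.0355), the plasminogen activator PLAT changed by 1.25 ± 0.22 and the serpin SERPINB2 by 2.56 ± 0.72. None of these rises passed with a library left out, and the groups overlap for MMP1. Among 15 histone genes tested 2 rose, 3 fell and 10 did not pass, against 9.91% and 11.6% of all genes that rose and fell. The variants H2AX and H2AZ1 changed by -1.67 ± 0.20 and -0.72 ± 0.11, and the linker histone H1-2 by 1.04 ± 0.21. H2AX passed in all 4 fits with a library left out, H2AZ1 in 2 and H1-2 in none. The list of A549 markers held 1 gene that rose in MDA-MB-231, AKR1C1, with 22.2 and 17.6 CPM in tipifarnib and 1.83 and 1.99 CPM in DMSO (3.36 ± 0.27, edgeR adjusted p = 0.000165). From the SKOV3 list PAX8 had 8.45 and 5.42 CPM in tipifarnib and 3.32 and 2.21 CPM in DMSO (1.32 ± 0.18, edgeR adjusted p = 0.00110). Of the other A549 and SKOV3 markers 1 passed, WT1, with 0 and 0 counts in tipifarnib and 9 and 2 in DMSO. SFTPB and MUC16 had at most 1 count in any of the 4 libraries. The monocyte gene CD14 fell, with 2 and 4 counts in tipifarnib and 26 and 19 in DMSO. Neither WT1 nor CD14 passed in the fit with no term for the vector.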
